A study of Bos taurus with 12 samples.

Results

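The cytosolic ribosomal protein genes encode the protein parts of the ribosome that translates nuclear mRNAs. They were taken from the table as all symbols made of RPL (large subunit) or RPS (small subunit), a number and at most a letter or an L, together with RPLP0, RPLP1, RPLP2 and RPSA, while the RPS6K kinases were left out. Of 24616 genes in the table, 78 symbols met this rule. They stood on 105 rows, because 22 symbols appeared more than once, and the row of highest mean level was used for each symbol. The test took in 77 of the 78, with 32 genes of the small subunit and 45 of the large one. RPL10L, a copy best known from testis, was listed at 0 in all 12 libraries and was not tested.

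A ribosome holds 1 copy of nearly every one of these proteins, and cells adjust their production together. The mRNAs begin with a tract of pyrimidines through which mTOR signalling controls their translation, and ribosome production is a large cost for a growing cell. In the heart, growth of the muscle under load is known to draw on new ribosomes, and striated muscle has its own large-subunit paralogue, RPL3L.

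The tissue was right ventricle, the heart chamber that feeds the lungs, from 12 Angus steers, with 1 library per animal. All animals, the low-pressure group included, were labelled wild type, had been born and kept at 2170 m (7120 ft) under chronic hypoxia of the environment, were castrated as calves and were slaughtered at 13 to 15 months. Catheter measurements of the mean pulmonary artery pressure (PAP) and clinical signs placed 6 animals in a low-PAP group (labelled hypoxia-tolerant), 3 in a group with pulmonary hypertension (PH) but clinically healthy (PH-healthy) and 3 in a group with PH and right heart failure (PH-failure). Animals from low elevation were not analysed here, so a low-PAP value is that of an animal at altitude and no group is free of hypoxia. Levels are RPKM (reads per length of exon, relative to the size of each library), and fold changes are differences of log2(RPKM + 1) ± SE from limma, with p-values adjusted by Benjamini-Hochberg over all 11374 genes tested and a gene called at an adjusted p under 0.05. In bulk tissue, fewer cells of a type and less RNA per cell cannot be told apart.

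The libraries held 14739237 to 31090198 mapped reads. The shallowest was PH-failure replicate 1, and the tested ribosomal protein genes had medians of 1699 to 38127 reads per library, so counting error was small against the spread between animals. The cardiac markers were those of ventricle, with MYL2 (the ventricular myosin light chain) at 18096 to 39265 RPKM in every library and summed levels of 18 cardiomyocyte markers of 101321 to 126221 RPKM in low PAP, 100625 to 110092 RPKM in PH-healthy and 72334 to 112129 RPKM in PH-failure. MYL7, an atrial light chain, was also present, at 3065 to 6738 RPKM in low PAP against 486 to 801 RPKM in PH-healthy and 403 to 1560.5 RPKM in PH-failure. It fell in both (limma adjusted p = 0.000407 and 0.00115). The atrial list went both ways. Of its 6 tested genes 2, MYL7 and MYBPHL, fell in each PH group, none rose in PH-healthy and 1, NR2F2, rose in PH-failure (0.56 ± 0.14, limma adjusted p = 0.0119), with list medians of -0.04 and 0.09. BMP10 of the atrial list was listed at 0 in every library. Whether the amount of atrial tissue differed between the groups was not tested.

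All 77 tested genes were abundant, with mean levels over the 12 libraries of 119 RPKM (RPL3) to 2430 RPKM (RPLP1) and a median of 654 RPKM, against 6.61 RPKM over all genes tested. The ratio of the highest to the lowest was 20.5. Between 200 and 1000 RPKM lay 60 genes, 12 were above 1000 RPKM and 5 below 200 RPKM. The 4 highest were RPLP1 of the acidic stalk that recruits elongation factors, RPL23, RPS3A and RPL10, a late-joining protein of the large subunit, and the 4 lowest were RPL3, RPS27L, RPL15 and RPL3L. Their exons were short, 171 to 2194 bp with a median of 603 bp, against 1948 bp over all genes tested. The order of the genes was much the same in the 3 groups, with Spearman's rho between group means of 0.973 for low PAP with PH-healthy, 0.974 for low PAP with PH-failure and 0.984 for both PH groups. These correlations are across genes, which are not independent replicates.

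Levels of the genes moved together from animal to animal. The SD of a gene's log2 level over the 12 libraries had a median of 0.353, and after the mean of the 77 genes in each library was subtracted it was 0.103, with 67 of 77 genes under 0.2. Expressed as the mean log2 difference from the low-PAP average, the 77 genes stood at -0.36 to 0.30 in the low-PAP animals, at -0.64, -0.46 and -0.66 in PH-healthy replicates 1, 2 and 3, and at -0.19, -0.56 and 0.12 in PH-failure replicates 1, 2 and 3. All 3 PH-healthy libraries lay below the lowest low-PAP library. The PH-failure libraries were spread, with replicate 2 in the PH-healthy range, replicate 1 within the low-PAP range and replicate 3 in the upper part of it. The low-PAP animals differed among themselves as well. Replicate 6 was the lowest of the 6 for 67 of 77 genes, and replicate 3 was the highest for 61.

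**Figure D1:**
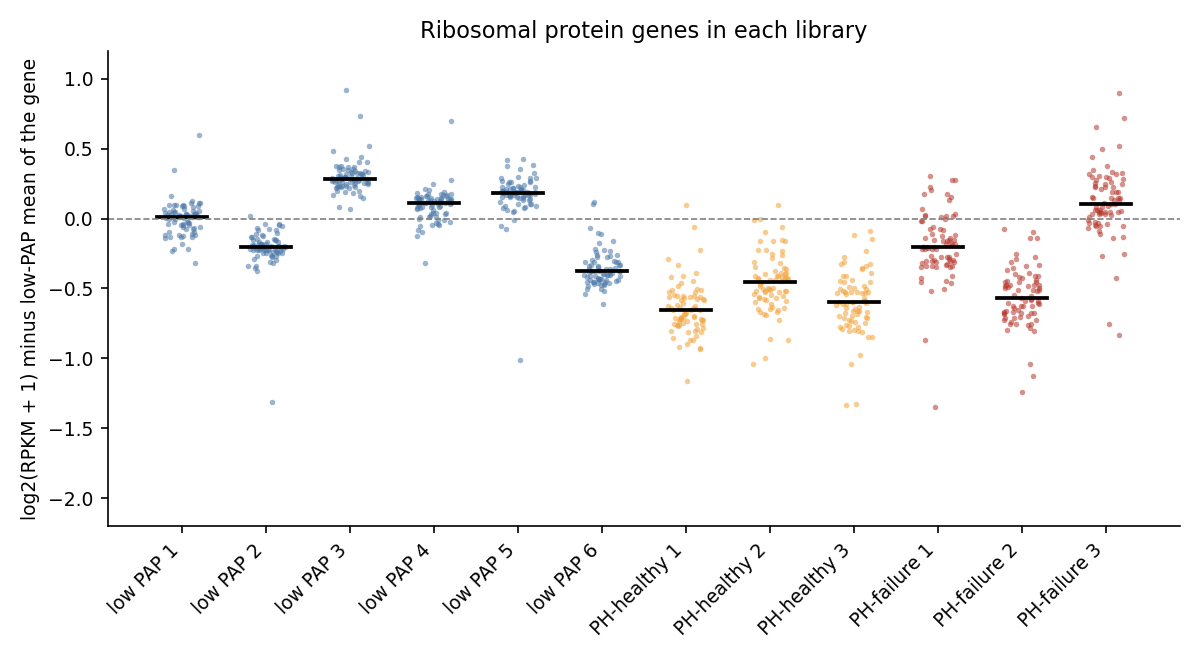
Each point is 1 of the 77 ribosomal protein genes in 1 library, as its log2(RPKM + 1) minus the mean of that gene over the 6 low-PAP libraries, and black bars are medians. Points move as a block in each library, with all 3 PH-healthy libraries below the low-PAP ones and PH-failure replicate 2 beside them. RPL12 in PH-healthy replicate 3, at -5.01, lies outside the axis.

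The weight of these genes in the exon reads of the libraries followed the same order. They took 4.46 ± 0.732% of exon reads in low PAP (SD, n = 6; lowest 3.36%, median 4.60%, highest 5.34%), 2.81%, 3.18% and 2.93% in PH-healthy and 3.80%, 2.98% and 4.96% in PH-failure. PH-healthy did not overlap low PAP and PH-failure did. RPKM values are relative to the whole library, and transcripts of the mitochondrial genome were 24.6 ± 2.67% of exon reads in low PAP (SD, n = 6) but 19.8 ± 1.27% in PH-healthy and 19.4 ± 1.34% in PH-failure (n = 3 each). With those genes left out of the total, the ribosomal protein genes took 5.92 ± 0.998%, 3.70 ± 0.184% and 4.84 ± 1.16%. As a share of summed RPKM, the ribosomal protein genes took 7.97 ± 0.988% in low PAP, 5.95 ± 0.282% in PH-healthy and 7.76 ± 2.03% in PH-failure (SD). By that measure PH-failure replicate 3, at 9.98%, was above the highest low-PAP library, at 9.03%. These shares are descriptions with no test.

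PH-healthy was set against low PAP to address raised pressure without clinical failure. Here 59 of the 77 genes fell and none rose. Over all genes tested, 8.15% were called lower and 26.6% higher. The median log2 fold change of the 77 genes was -0.58, a fold of 0.670, where that of all genes tested was 0.18, and 76 of 77 genes were below 0. In 54 genes every PH-healthy animal was below every low-PAP animal, against 9.3% of all genes tested. Both subunits were alike, with 24 of 32 small-subunit genes called lower (median -0.56) and 35 of 45 large-subunit genes (median -0.60). The difference between the mean log2 levels of small-subunit and large-subunit genes was 0.22 ± 0.028 in low PAP, 0.22 ± 0.043 in PH-healthy and 0.24 ± 0.065 in PH-failure (SD).

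Among the small-subunit genes, RPS26 had the largest called fall. Its protein lies at the mRNA exit channel of the small subunit, and its gene is on chromosome 5 (57603810 to 57606599, positions as the table gives them, with starts that appear to count from 0, on a genome build that the sources used here do not name). The level was 383, 440.5 and 662 RPKM in low PAP (lowest, median, highest) and 211, 229.9 and 230.5 RPKM in PH-healthy. The groups did not overlap, and the log2 fold change was -1.08 ± 0.19 (limma adjusted p = 0.00221). RPS15A followed (chromosome 25, 16531760 to 16537583), at 251, 301 and 412 RPKM in low PAP and 165, 170.0 and 123 RPKM in PH-healthy, a change of -1.04 ± 0.23 (limma adjusted p = 0.00654). The PH-healthy values were again all below the low-PAP values.

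RPS29, a small zinc-binding protein of the small-subunit head, was at 653, 892 and 1005 RPKM in low PAP (lowest, median, highest) and at 460.3, 523 and 479 RPKM in PH-healthy. Its log2 fold change was -0.79 ± 0.17 (limma adjusted p = 0.00527). The RPS29 row, on chromosome 10 (26814898 to 26815069), has 171 bp of exon over a span of the same length, leaving no room for an intron. The sources used here do not say how reads that match other copies were assigned, so its values carry that uncertainty. RPS26 and RPS29 were called lower under every alternative run, with adjusted p of 0.0013 to 0.0215 and 0.00193 to 0.0426. RPS24, a gene whose loss causes Diamond-Blackfan anaemia in people, averaged 759 ± 45.6 against 1327 ± 262 RPKM and changed by -0.78 (limma adjusted p = 0.0103).

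Other small-subunit genes with well-known roles, chosen for those roles after their values were seen, had smaller changes. RPS6, the protein phosphorylated by S6 kinase downstream of mTOR, averaged 472 ± 32.7 against 730.2 ± 132 RPKM (-0.61 ± 0.20, limma adjusted p = 0.0333). RPS19, needed to mature the small subunit, averaged 479 ± 38.4 against 700.1 ± 119.5 RPKM (-0.53 ± 0.18, limma adjusted p = 0.0374). RPS27A, made as a fusion with ubiquitin, averaged 860.1 ± 84.0 against 1283 ± 214 RPKM (-0.56 ± 0.17, limma adjusted p = 0.0239). The calls of RPS6 and RPS19 were among the less stable ones, lost under 11 and 12 of the 25 alternatives.

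Of the large subunit, RPL36A (chromosome X, 55209957 to 55213506) and RPL21 (chromosome 12, 32852825 to 32859542) had the largest called falls on the chosen rows. RPL36A, at the site where tRNA leaves, was at 373, 557 and 669 RPKM in low PAP (lowest, median, highest) and at 276, 290.3 and 309 RPKM in PH-healthy, which is -0.85 ± 0.20 on the log2 scale (limma adjusted p = 0.00792). RPL21 was at 330.1, 501 and 583 RPKM and at 246, 283 and 272 RPKM, a change of -0.81 ± 0.19 (limma adjusted p = 0.0086). Neither gene's groups overlapped on its chosen row. A second abundant RPL36A row, on chromosome 10, did overlap, at 200 to 285 RPKM in low PAP and 199, 220 and 153 RPKM in PH-healthy. The RPL36A rows summed to 578 to 961 RPKM in low PAP and 476, 518 and 464 RPKM in PH-healthy. RPL5 and RPL11, which carry the 5S RNA and also bind the p53 regulator MDM2, were named for that role after their values were seen. RPL5 averaged 519.8 ± 24.1 against 863 ± 148 RPKM (-0.71 ± 0.20, limma adjusted p = 0.018), and RPL11 averaged 526 ± 41.7 against 774 ± 119.9 RPKM (-0.55 ± 0.17, limma adjusted p = 0.0243).

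The stalk proteins split by size of change. RPLP1 and RPLP2, the acidic pair, averaged 1759 ± 97.6 against 2861 ± 614 RPKM (-0.67 ± 0.19, limma adjusted p = 0.02) and 348 ± 45.6 against 532 ± 105 RPKM (-0.60 ± 0.18, limma adjusted p = 0.0229). RPLP0, which anchors them, averaged 379.9 ± 46.7 against 467 ± 62.2 RPKM and was not called (-0.29 ± 0.16, limma adjusted p = 0.176). Whether these members differed from each other was not tested.

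The 18 genes not called lower included RPL3, RPL3L, RPL10, RPL12, RPL18, RPL19, RPL23A, RPL28, RPL29, RPLP0, RPS10, RPS13, RPS16, RPS23, RPS27, RPS27L and RPSA. In RPL29 and RPS13 the groups nevertheless did not overlap. RPL10 was at 1202, 1272 and 1530.3 RPKM in low PAP (lowest, median, highest) and at 1039.7, 1256 and 1210.2 RPKM in PH-healthy (-0.17 ± 0.17, limma adjusted p = 0.437). RPSA, also known as the laminin receptor, averaged 451 ± 57.4 against 578 ± 102 RPKM (-0.34 ± 0.19, limma adjusted p = 0.168). RPS27L was the 1 gene not below 0, at 0.00 ± 0.15.

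The count of calls depended on single animals. Without PH-healthy replicate 1, 8 genes were called lower, without replicate 3 there were 12, and without replicate 2 there were 38. Calls over all genes fell with them, from 927 lower to 382 without replicate 1 and 410 without replicate 3. With low-PAP replicate 3 left out the count was 38, with replicate 4 or 5 left out it was 39 each, and without replicate 6, the lowest low-PAP animal for most of these genes, it was 65. Of all genes tested, 5.65%, 5.8%, 6.1% and 9.28% were called lower without low-PAP replicates 3, 4, 5 and 6. The median over the 77 genes stayed below 0 in each of these fits. The direction also held within each series of library names, which may or may not be a batch: the median difference was -0.57 in series 55 (2 PH-healthy against 3 low-PAP libraries, 77 of 77 genes lower) and -0.63 in series 56 (1 against 3, 76 of 77 lower).

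**Figure D2:**
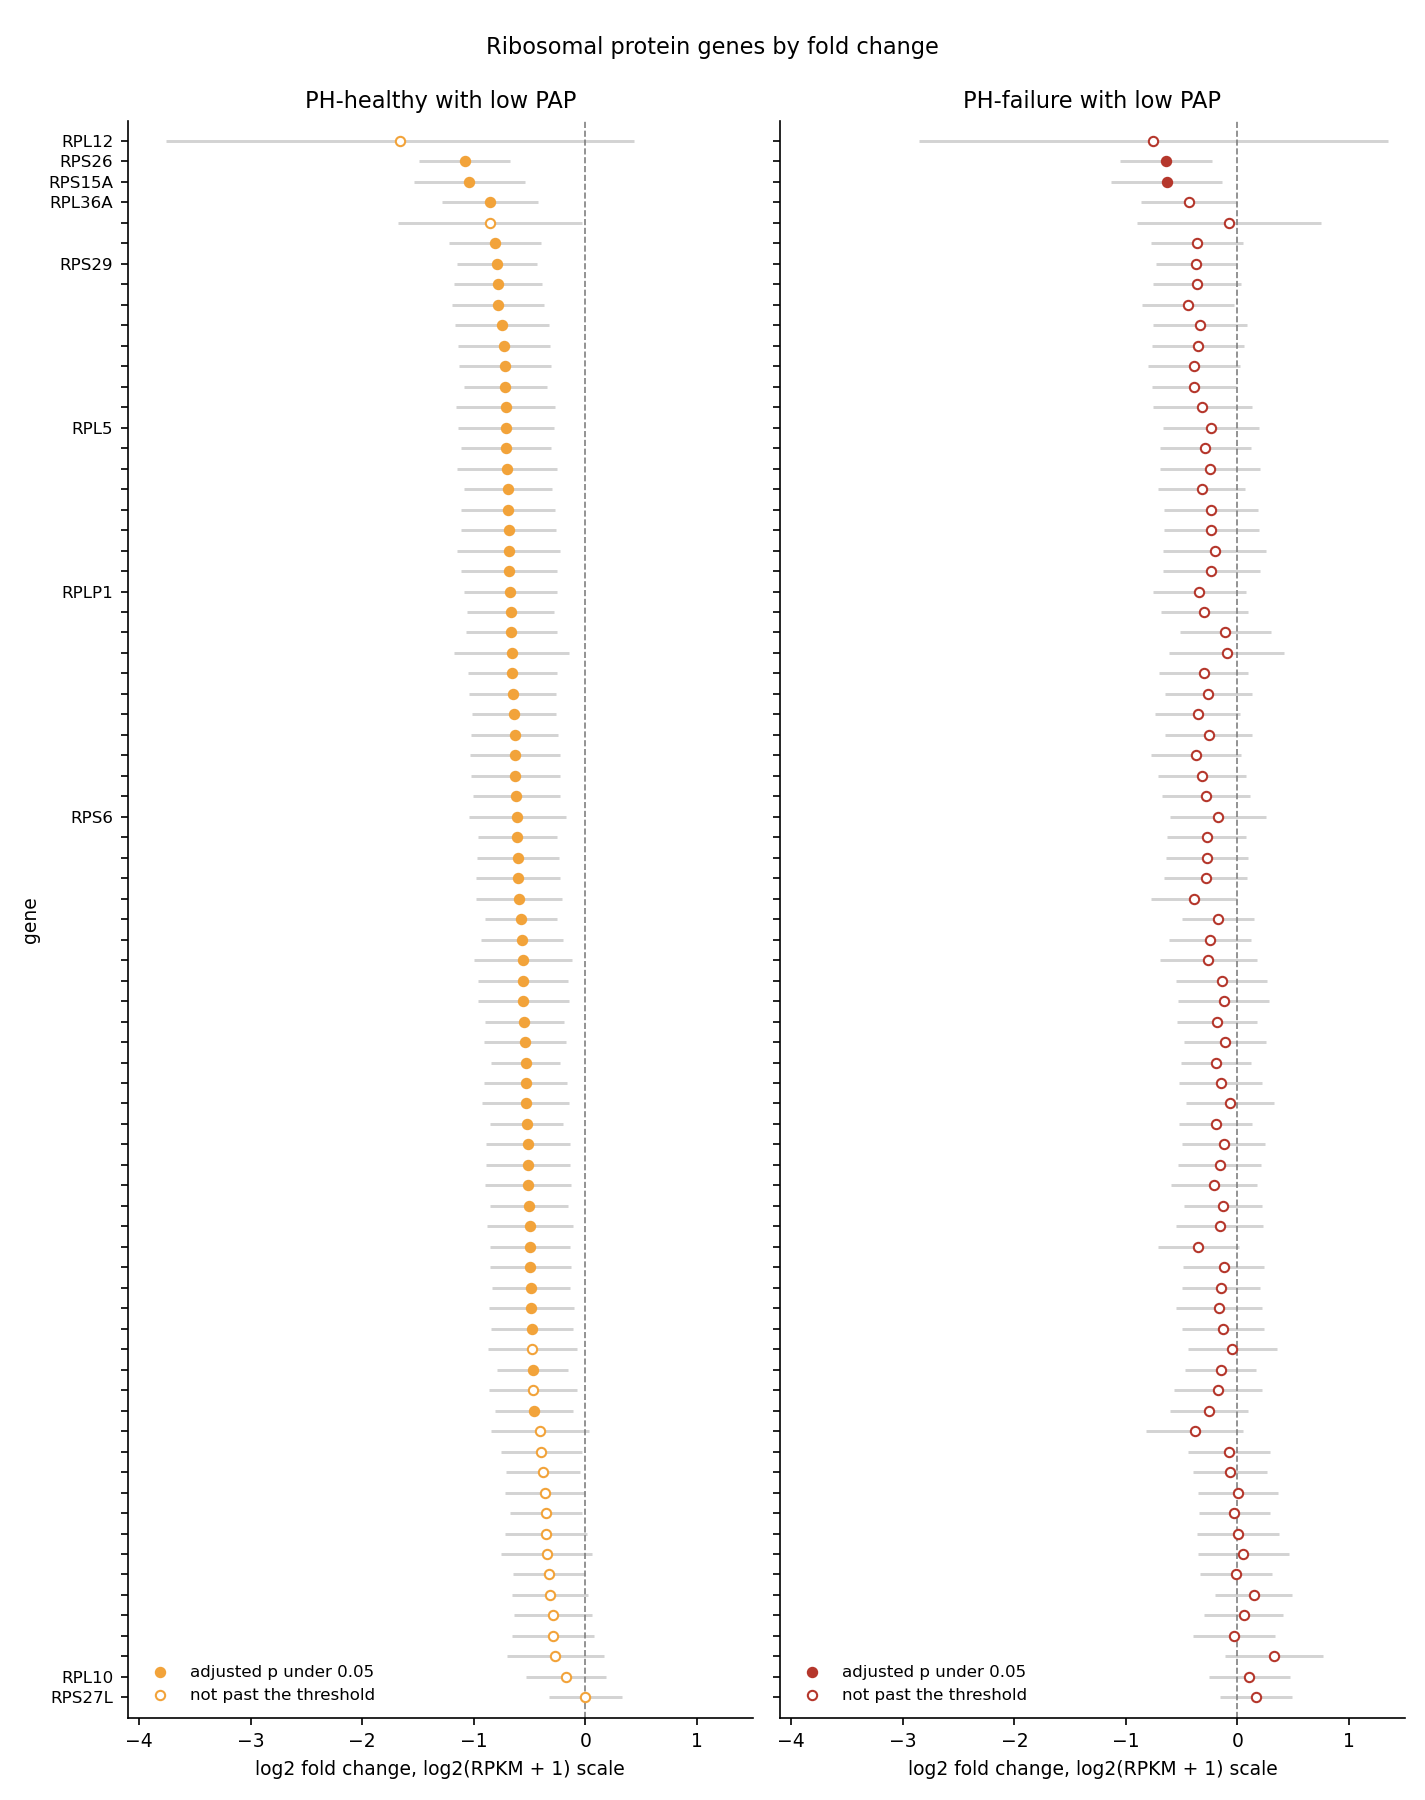
Log2 fold changes of the 77 ribosomal protein genes from low PAP, for PH-healthy (left) and PH-failure (right), in the same order of genes, with 95% confidence intervals from limma as bars. Some genes described in the text are named on the axis. Filled points passed an adjusted p of 0.05, which were 59 genes on the left and 2, RPS26 and RPS15A, on the right.

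In PH-failure, compared with the same low-PAP animals to address overt failure, 2 of the 77 genes fell and none rose. Over all genes tested, 5.79% were called lower and 28% higher. The median log2 fold change was -0.21, a fold of 0.864, against 0.21 over all genes tested, with 69 of 77 genes below 0 and 7 with an unadjusted p under 0.05. Groups did not overlap in 1 gene, RPS26, against 3.74% of all genes tested lower in this way. RPS26 was at 347, 229.9 and 353 RPKM in PH-failure, against 383 RPKM in the lowest low-PAP animal, with a change of -0.64 ± 0.19 (limma adjusted p = 0.0238). RPS15A was at 170.4, 142 and 329.8 RPKM (-0.64 ± 0.23, limma adjusted p = 0.0491), and the last of these values lies inside the low-PAP range of 251 to 412 RPKM.

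Neither call was stable. That of RPS15A was lost under 16 of 25 alternatives, among them leaving out any 1 of PH-failure replicates 1 and 2, the 3 PH-healthy animals or low-PAP replicates 1 to 5, and that of RPS26 under 2, namely without PH-failure replicate 2 and with the replicate number as a block. The block fit draws nothing from low-PAP replicates 4, 5 and 6, since no PH animal has those numbers. Without PH-failure replicate 2 RPS26 changed by -0.44 on the log2 scale (limma adjusted p = 0.115; 0.0126 to 0.115 over its alternatives), RPS15A had -0.39 (limma adjusted p = 0.231; 0.00778 to 0.231), and no ribosomal protein gene was called. Without low-PAP replicate 6 there were 13 calls, against 7.36% of all genes tested called lower. Read animal by animal, PH-failure replicate 2 was below the low-PAP range in 68 of 77 genes, replicate 1 in 8 and replicate 3 in 2, while replicate 3 was above that range in 15. The PH-healthy animals were below it in 74, 57 and 69 genes. Replicate 2 was the lowest of the PH-failure animals for 75 genes and replicate 3 the highest for 68. Within series 56 the median difference of the 77 genes was -0.38 (replicates 1 and 2 against 3 low-PAP libraries), and within series 55, where PH-failure has replicate 3 alone, it was 0.07.

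The spread between failing animals was wide in single genes too. RPL23, another binder of MDM2, was at 1345, 1269 and 2847 RPKM in PH-failure, where the low-PAP animals ranged from 1451 to 2390.5 RPKM. RPL5 was at 625.2, 564 and 1073 RPKM and RPS6 at 619, 466 and 899.8 RPKM. In each of the 3 genes replicate 3 was above the highest low-PAP animal and replicate 2 was below the lowest. None was called in PH-failure (limma adjusted p = 0.772, 0.372 and 0.514).

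The 2 PH groups were compared directly, which is also the test of whether their shifts from low PAP differed, since both are measured against the same low-PAP animals. No ribosomal protein gene was called by limma (lowest adjusted p = 0.9995) or by limma-voom on the recovered reads, and over all genes tested 0.00879% were called, all of them lower. All 77 genes had a log2 fold change above 0 in PH-failure relative to PH-healthy, with a median of 0.37 (fold 1.29) against 0.02 over all genes tested, and 7 had an unadjusted p under 0.05. Because the 77 genes move together between animals, their shared sign says little beyond the position of 3 libraries against 3. PH-failure replicates 1 and 3 were each above all PH-healthy animals in 75 genes, and replicate 2 in 6. The groups did not overlap in 6 genes, all higher in PH-failure, namely RPL4, RPL5, RPL23, RPL23A, RPS13 and RPS18. Over all genes tested, 3.61% were higher and 2.13% lower in this way.

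The smallest p-values of this comparison belonged to RPL3, RPS4, RPL23A and RPS14. RPL3, part of the peptidyl transferase centre, was at 133, 103 and 212 RPKM in PH-failure and at 92.7, 113 and 80.2 RPKM in PH-healthy (0.59 ± 0.23, limma unadjusted p = 0.0243). RPS4 averaged 661 ± 184 against 444 ± 87.4 RPKM, RPL23A 223 ± 31.4 against 162 ± 19.9 RPKM and RPS14 862 ± 149 against 648 ± 62.8 RPKM. None of these differences held up after adjustment. In simulated tables of this design, limma called 44.4% of genes changed 2-fold and 3% of genes changed 1.5-fold between the PH groups, so changes of the size seen here were mostly below what 3 against 3 animals can show.

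With both PH groups pooled at equal weight, 40 of 77 genes were called lower than in low PAP and none higher, 14 of 32 in the small subunit and 26 of 45 in the large one. Over all genes tested, 10.4% were called lower, 37.3% higher and 47.7% in either direction. The median was -0.39, against 0.19 over all genes tested. In 1 gene, RPS26, all 6 PH animals were below all 6 low-PAP animals, against 2.93% of all genes tested.

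Markers of other cells moved between these libraries, and their part in the result was not tested except where a value is given. The adipocyte score, the mean log2 level of 10 fat-cell markers, was 3.21 to 4.76 in low PAP, 2.87 to 3.01 in PH-healthy and 4.60, 3.39 and 5.06 in PH-failure replicates 1, 2 and 3. PH-failure replicates 1 and 3 thus had both high scores and the higher ribosomal protein levels of their group. The summed level of the 10 markers was 610.5 to 1136 RPKM, 634 to 859 RPKM and 792 to 2303 RPKM in the 3 groups, with LPL and CD36, which heart muscle also expresses, the largest parts in most libraries. FABP4, a fatty-acid carrier abundant in fat cells, was at 5.48 to 173 RPKM, 2.10 to 4.01 RPKM and 12.6 to 949 RPKM in the 3 groups, and the fat-cell hormone ADIPOQ was at 2.28 to 51.3 RPKM, 0.739 to 1.29 RPKM and 3.62 to 70.5 RPKM. None of the 10 was called in either comparison with low PAP. With the score as a term in the fit, 2 ribosomal protein genes were called lower in PH-healthy (median -0.33) and 25 in PH-failure (median -0.42), and the median between the PH groups became -0.063. Every PH-healthy score was below every score of the other groups. In comparisons with PH-healthy, score and group therefore cannot be fully told apart by that fit. In that fit 2.19% of all genes tested were called lower in PH-healthy, so the 2 ribosomal protein genes, 2.6% of the 77, are near the background, and 5.11% were called lower in PH-failure against 32.5% of the 77.

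For other cell types, 8 of 15 fibroblast markers, 6 of 14 endothelial markers and 3 of 13 macrophage markers rose in PH-healthy, and 10, 7 and 9 rose in PH-failure, with none of these lower. The shares of all genes tested called higher were 26.6% and 28%, and the macrophage count in PH-healthy did not exceed that. Summed fibroblast markers were 977 to 1263 RPKM in low PAP, 963 to 1685 RPKM in PH-healthy and 1344 to 2090.4 RPKM in PH-failure. Of 14 smooth muscle and pericyte markers 4 rose and 2 fell in PH-healthy, and 10 rose and 1 fell in PH-failure. Of 10 lymphocyte markers 1, TRAC, fell in each comparison, and CD79B and MS4A1, which define B cells, were at 0 to 0.39 RPKM. None of 3 erythroid markers was called. PH-failure replicate 3, with the highest ribosomal protein level of its group, stood apart in several sums. Its erythroid markers summed to 70.1 RPKM, against 1.798 to 9.30 RPKM in the other 11 libraries, and its macrophage markers to 224 RPKM, against 60.2 to 142 RPKM. Its cardiomyocyte sum of 72334 RPKM was the lowest of the 12. Of 18 cardiomyocyte markers 4 rose and 3 fell in PH-healthy and 3 rose and 7 fell in PH-failure. The part of these shifts in the fall of the ribosomal protein genes was not tested.

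The size of the fall depended on how libraries were scaled, while its sign relative to other genes in PH-healthy did not. After quantile normalization the median of the 77 genes was -0.23 in PH-healthy and 0.01 in PH-failure, where all genes tested had -0.04 and -0.03, and the calls were 13 lower in PH-healthy and 1 higher and 1 lower in PH-failure. The 13 are 16.9% of the 77 genes, near the 14.3% of all genes tested called lower under that scaling, and in PH-failure 12.5% of all genes were called lower and 9.96% higher. After median-ratio scaling the medians were -0.81 and -0.48, against -0.01 for all genes tested in both, with 71 and 13 genes called lower. Over all genes tested 17.3% and 15.7% were called lower, so the 13 in PH-failure, 16.9% of the 77, are near the background. The reported values sit between these, relative to an all-gene median of 0.18 in PH-healthy and 0.21 in PH-failure. With RPKM rescaled to exclude the mitochondrial genome, the medians were -0.45 and -0.13 and the calls 46 and 1, against 5.56% and 4.62% of all genes called lower.

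**Figure D3:**
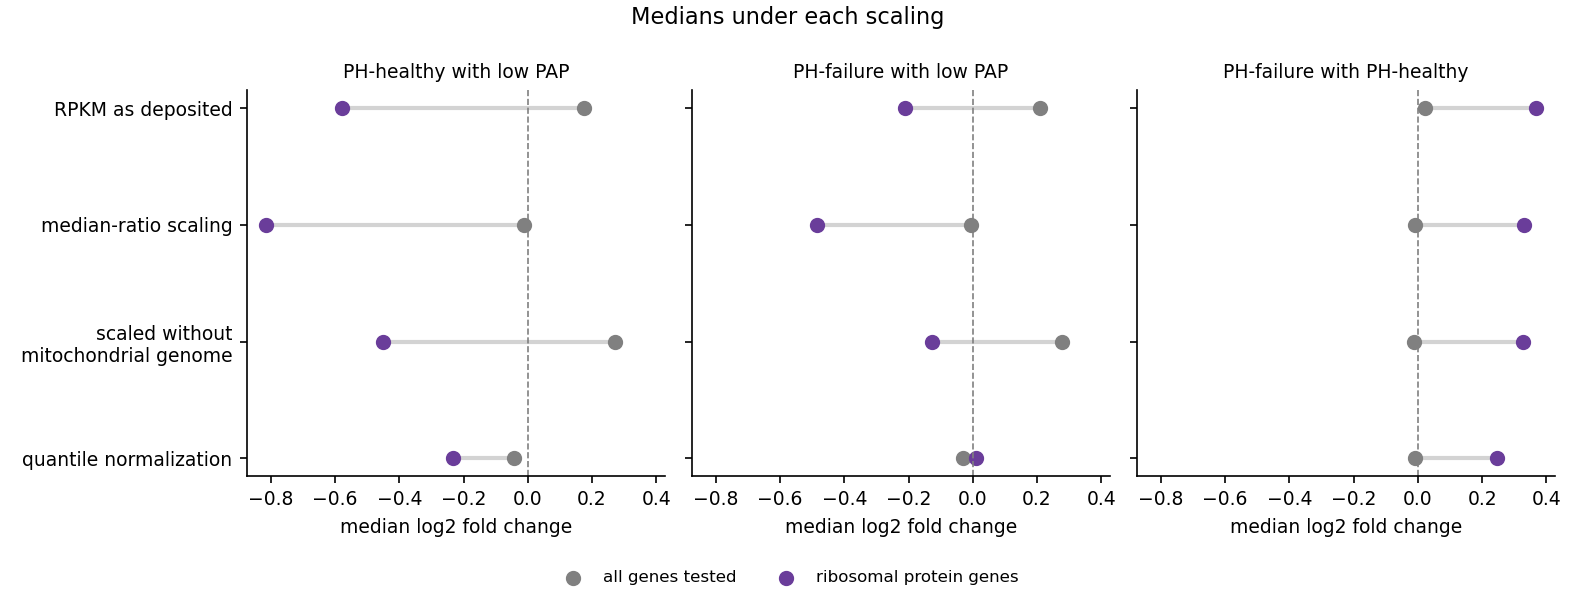
Median log2 fold change of the 77 ribosomal protein genes (purple) and of all 11374 genes tested (grey) under 4 scalings of the libraries, for 3 comparisons. Purple lies left of grey in PH-healthy under all 4 scalings and in PH-failure under 3, and right of it between the PH groups under all 4.

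RPL12 needs its own account because 2 abundant rows carry its symbol. The row used, on chromosome 10 (83480587 to 83481217), has 630 bp of exon over a span of the same length, leaving no room for an intron. The other, on chromosome 11 (98191879 to 98195943), has 597 bp of exon. Of the summed RPKM of both rows, the chromosome 10 row held 87.6 to 92.1% in low-PAP replicates 1, 3, 4 and 6, PH-healthy replicates 1 and 2 (88.3 and 88.6%) and PH-failure replicate 2 (88.2%). It held 24.5 to 28.1% in low-PAP replicates 2 and 5 and PH-failure replicates 1 and 3, and 2.48% in PH-healthy replicate 3. The shares thus fell into separate levels that cut across the groups.

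The chosen RPL12 row gave the largest fold change of all, -1.66 ± 0.96 in PH-healthy (limma adjusted p = 0.195), on values of 437, 489 and 13.2 RPKM against 184 to 865 RPKM in low PAP. Summed over both rows, RPL12 lay close to the other genes. The sum was 560 to 951 RPKM in low PAP, 495, 551 and 531 RPKM in PH-healthy and 711, 491 and 912 RPKM in PH-failure, and the change in PH-healthy was -0.55 (limma adjusted p = 0.044). The SD of its level relative to the other genes dropped from 1.48 for the chosen row to 0.0763 for the sum. The sources used here do not say how reads that match both rows were assigned, so the split between rows is uncertain.

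**Figure D4:**
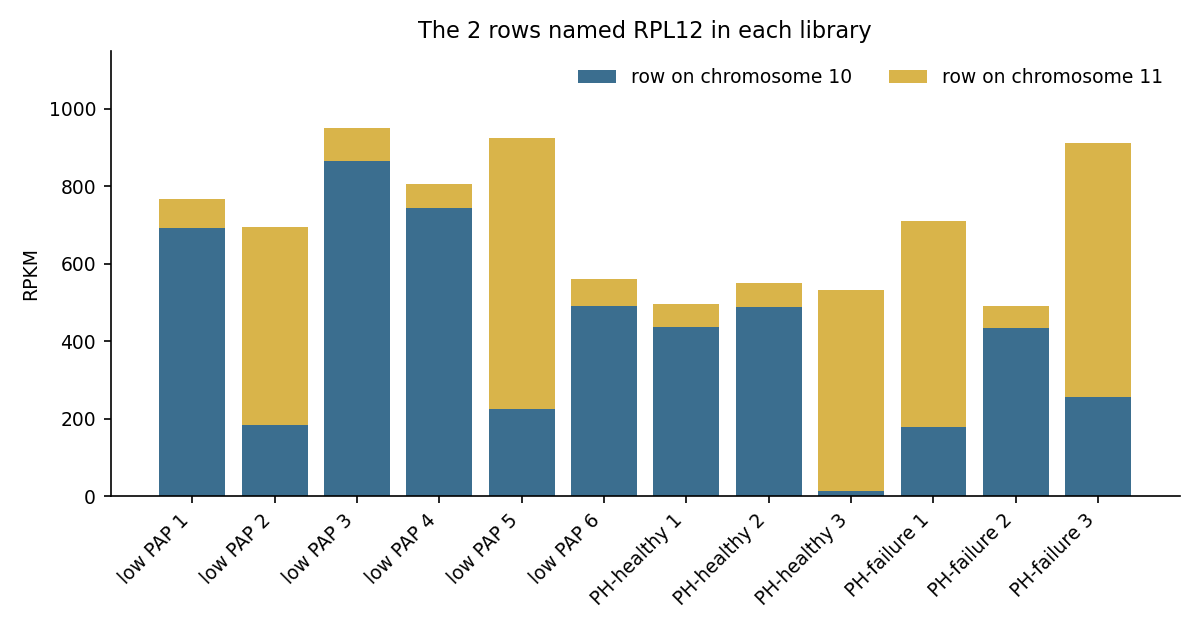
RPKM of the 2 rows named RPL12 in each of the 12 libraries, stacked. The chromosome 10 row (blue) holds 2.48 to 92.1% of the sum, while the sum itself lies between 491 and 951 RPKM.

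Of the other repeated symbols tested here, RPL36A had 56.1 to 70.9% of its summed level on the chosen row and RPL17 85.6 to 93.8%, and summing the rows of every symbol left 60 genes called lower in PH-healthy and 2 in PH-failure. RPS23, which sits at the decoding centre, had an uneven pattern of its own. It was at 384, 464 and 833 RPKM in low PAP (lowest, median, highest), at 428, 251 and 199 RPKM in PH-healthy and at 620.5, 212 and 824 RPKM in PH-failure. The groups overlapped, and neither comparison with low PAP was called (limma adjusted p = 0.0981 in PH-healthy and 0.895 in PH-failure).

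Paralogues were compared by the ratio of their RPKM values within each library, which does not depend on the scaling of the library. RPL3L (chromosome 25, 1508567 to 1515379) replaces RPL3 (chromosome 5, 111261437 to 111267705) in part of the ribosomes of striated muscle, and RPL3 is known to return when muscle grows or is injured. RPL3L was at 117, 173 and 228 RPKM in low PAP (lowest, median, highest), at 115, 119 and 154 RPKM in PH-healthy and at 173, 127 and 100.4 RPKM in PH-failure. RPL3 was at 96.1, 115 and 145 RPKM, at 92.7, 113 and 80.2 RPKM and at 133, 103 and 212 RPKM. As a share of both, RPL3L made up 59.9 ± 4.53% in low PAP, 57.5 ± 7.38% in PH-healthy and 56.6%, 55.1% and 32.1% in PH-failure.

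PH-failure replicate 3 therefore stood apart in this pair, with the highest RPL3 and the lowest RPL3L of the 12 animals. The log2 ratio of RPL3L to RPL3 was -0.13 ± 0.82 in PH-failure (SD, n = 3) and 0.58 ± 0.27 in low PAP (n = 6), a difference of -0.72 with an exact 2-sided permutation p of 0.0714 (0.23 adjusted over 15 such tests). The sum of the pair was 288 ± 47.2 RPKM in low PAP, 225 ± 14.5 RPKM in PH-healthy and 283 ± 46.0 RPKM in PH-failure. Neither gene was called in any comparison with low PAP.

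RPS27L is a paralogue of RPS27 that p53 induces, and neither gene was called in PH-healthy or PH-failure. RPS27L was at 112, 143 and 163 RPKM in low PAP (lowest, median, highest), at 151, 141 and 133 RPKM in PH-healthy and at 156, 129 and 201 RPKM in PH-failure. RPS27 was at 817, 1083 and 1262 RPKM, at 703, 837 and 724 RPKM and at 951, 764 and 1421 RPKM. As a percent of RPS27, RPS27L stood at 13.6 ± 1.65 in low PAP (11.7 to 16.5), at 21.5, 16.9 and 18.4 in PH-healthy and at 16.4, 16.8 and 14.1 in PH-failure. PH-healthy was above every low-PAP animal, with an exact 2-sided permutation p of 0.0119, the smallest this design allows, and 0.179 after adjustment over the 15 tests.

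The other 3 pairs set a paralogue outside the naming rule against a listed gene. The ratios of RPL7L1 to RPL7 and of RPS4Y1 to RPS4 were higher in PH-healthy than in low PAP by 0.44 and 0.43 on the log2 scale (exact permutation p = 0.0357 and 0.0238, adjusted 0.179 each), and that of RPL26L1 to RPL26 by 0.32 (exact permutation p = 0.0833, adjusted 0.23). No paralogue ratio passed the threshold after adjustment. Between the PH groups the smallest p that 3 against 3 animals can give is 0.1.

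**Figure D5:**
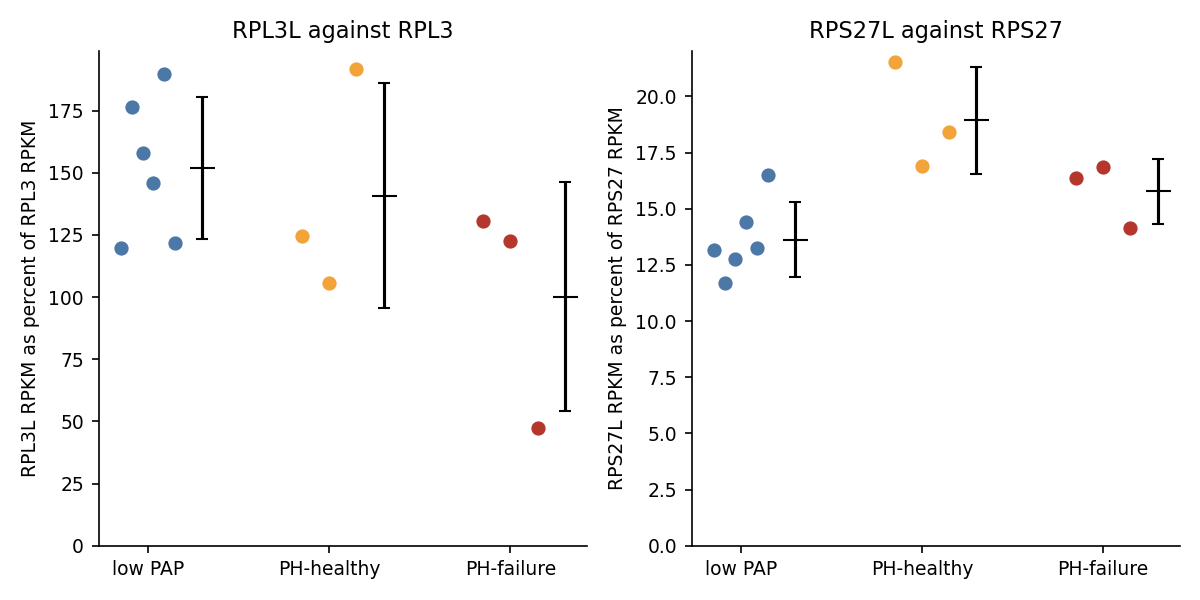
RPKM of RPL3L as percent of RPL3 (left) and of RPS27L as percent of RPS27 (right), 1 point per library, with the mean and SD of each group beside the points. The 3 PH-healthy libraries lie above all low-PAP libraries on the right, and PH-failure replicate 3 is the lowest point on the left.

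The genes that share the ribosomal protein genes' setting did not all move with them. FAU, whose product is cleaved into a ubiquitin-like protein and a ribosomal protein, fell in PH-healthy. It averaged 223 ± 24.9 against 356 ± 66.3 RPKM (-0.66 ± 0.18, limma adjusted p = 0.0168). UBB, a polyubiquitin gene with no ribosomal part, also fell, at 703 ± 75.7 against 1015 ± 102 RPKM (limma adjusted p = 0.00771). Of the 4 genes of this list, 3 fell in PH-healthy and 1, UBB, in PH-failure. None of the 6 paralogues outside the naming rule was called in either comparison. With both PH groups pooled, RPS4Y1 was called lower (-0.23 ± 0.08, limma adjusted p = 0.0345).

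The mitochondrial ribosome has its own nuclear-encoded proteins. Of 74 such genes, 35 fell in PH-healthy (median -0.40) and 34 in PH-failure (median -0.36), and none rose in either, where 8.15% and 5.79% of all genes tested were called lower. Between the PH groups their median was 0.02, where that of the cytosolic genes was 0.37. MRPL48 averaged 49.2 ± 6.57 RPKM in low PAP, 29.1 ± 0.956 RPKM in PH-healthy and 28.8 ± 0.968 RPKM in PH-failure (limma adjusted p = 0.00159 and 0.0018), and MRPL21 averaged 116 ± 18.6, 61.7 ± 0.611 and 62.1 ± 13.3 RPKM (limma adjusted p = 0.00214 and 0.0027). Oxidative phosphorylation, measured by 79 nuclear genes, had 46 lower in PH-healthy and 51 lower in PH-failure, with none higher, against the same background.

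Translation factors, together with other genes whose mRNAs carry the same pyrimidine tract or whose products work beside the ribosome, were mixed. Of 41 such genes, 3 rose and 8 fell in PH-healthy (median -0.07), and 5 rose and 1 fell in PH-failure (median 0.12). The shares of all genes called higher, 26.6% and 28%, were larger than those of this list. Of all genes, 8.15% and 5.79% were called lower, a share that this list exceeded in PH-healthy but not in PH-failure. EIF3M, of the initiation factor that binds the small subunit, averaged 65.6 ± 3.30 against 99.7 ± 13.7 RPKM in PH-healthy (-0.59 ± 0.14, limma adjusted p = 0.00916). EIF3A, of the same factor, rose from 21.9 ± 6.64 to 40.3 ± 2.20 RPKM (0.90 ± 0.22, limma adjusted p = 0.00916). EEF1A1, the elongation factor that delivers tRNA, averaged 739 ± 78.1 RPKM in low PAP, 948 ± 198 RPKM in PH-healthy and 1441 ± 443 RPKM in PH-failure (0.92 ± 0.19 in PH-failure, limma adjusted p = 0.00624). EEF1A2, its form in muscle and neurons, rose in both groups, from 922 ± 104 to 1352 ± 233 RPKM in PH-healthy and 1578 ± 249.6 RPKM in PH-failure (limma adjusted p = 0.0166 and 0.0045).

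Factors that build ribosomes were also mixed. Of 91 genes of ribosome biogenesis and RNA polymerase I, 14 rose and 5 fell in PH-healthy (median 0.03), and 13 rose and 1 fell in PH-failure (median 0.13). RRN3, which recruits RNA polymerase I to ribosomal DNA, averaged 12.4 ± 1.09 against 7.76 ± 1.79 RPKM in PH-healthy (0.64 ± 0.16, limma adjusted p = 0.0112), and BRIX1, needed for the large subunit, averaged 11.99 ± 1.10 against 17.8 ± 2.56 RPKM (-0.52 ± 0.13, limma adjusted p = 0.0116). Of 37 MYC and mTOR genes that regulate ribosome supply, 15 rose and none fell in PH-healthy, and 11 rose and 1 fell in PH-failure. The list holds both activators and inhibitors of that supply, so these counts give no direction for it. SESN3, an inhibitor on it, averaged 1.71 ± 0.413 RPKM in low PAP, 4.70 ± 0.501 RPKM in PH-healthy and 4.52 ± 1.51 RPKM in PH-failure (limma adjusted p = 0.00131 and 0.00243). MTOR itself averaged 3.29 ± 0.647 RPKM in low PAP, 5.89 ± 0.709 RPKM in PH-healthy and 5.45 ± 0.888 RPKM in PH-failure (limma adjusted p = 0.00472 and 0.0109). The 26.6% and 28% of all genes tested that were called higher in these comparisons are the background for the last 2 lists. The rises among the biogenesis genes were below it in both groups. Those among the MYC and mTOR genes were above it in PH-healthy and near it in PH-failure. The falls in both lists were below the 8.15% and 5.79% of all genes tested called lower.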

How the data were processed

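Right ventricle RNA of 12 steers was extracted with Trizol and sequenced on Illumina libraries, per the labels' protocols. The authors deposited 1 table, which gives RPKM for each gene in each library, per the file headers. It also holds the authors' deposited group means, fold, p-value and false discovery rate columns, which were not used here. The sources used here do not name the aligner or the genome build, nor say how strand and reads shared by gene copies were handled. The tests planned for counts were replaced by limma because the unit is RPKM.

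The 11374 genes that reached 1 RPKM in 3 or more libraries were fitted in 1 model of 3 groups by limma 3.58.1 (trend, robust moderation, R 4.3.3) on log2(RPKM + 1), which understates changes of low genes. Reads behind the values were recovered from the RPKM steps, whole within 0.05 reads for all 11374 genes. They gave depths, and limma-voom used them as an alternative. Both steps were tested on simulated data, where limma called 53.5% of genes changed 2-fold in PH-healthy and 65.7% in PH-failure, and the recovery was exact in 99.9% of 2869 genes. Libraries were checked for duplication, and no 2 shared identical values above 0. Paralogue ratios were compared by exact permutation tests. Each library is 1 animal.

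Members and lists were chosen with earlier results of these data known. Named were RPL3, RPL3L, RPSA, the stalk genes, paralogue pairs, the 4 highest and 4 lowest genes, the 6 largest called changes per comparison, or the smallest p-values where none was called, and up to 4 called genes of each list. RPL12, RPS23 and members named for a role, a flag or a lack of overlap were added after their values were seen. Some genes that the naming rule or a list selects are not reported here.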

Additional observations from a re-analysis of the deposited data

Results flagged for a closer look

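In 2 of the 78 sets of 6 low-PAP values examined, 1 animal lay far from the other 5, judged by the gap to its nearest neighbour as a share of the whole range. Chance gives such a gap in about 1 in 20 sets. Both were low-PAP replicate 3. RPL38, a large-subunit protein known for its part in translating Hox mRNAs, was at 679.7 RPKM there and at 404 to 466 RPKM in the other low-PAP animals. RPS13, of the small subunit, was at 861 RPKM there and at 561 to 661 RPKM in the others. This animal was the highest of the low-PAP group for 61 of the 77 genes. Without it RPL38 was no longer called lower in PH-healthy (limma adjusted p = 0.0519, against 0.0372 with it), a call that was lost under 12 of 25 alternatives in all (adjusted p up to 0.198), and RPS13 was not called in either case.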

How the results depend on the processing

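All comparisons with low PAP share the same 6 animals, and limma on log2(RPKM + 1) was refitted under each alternative. For PH-healthy, 59 genes called lower became 13 after quantile normalization, 2 with the adipocyte score in the model and 8 to 65 when 1 library was left out. These fits called 14.3%, 2.19% and 3.36 to 9.6% of all genes tested lower. The adipocyte score did not overlap between PH-healthy and low PAP, so the fit with it cannot fully tell score from group there. The PH-healthy median of -0.58 became -0.23 after quantile normalization. For PH-failure, 2 called lower became 13 after median-ratio scaling, 25 with the adipocyte score, and 1 after quantile normalization (with 1 called higher), scaling without the mitochondrial genome, no filter, the library series as a term or only the groups compared. Leaving out 1 library gave 0 to 13, against 2.26 to 8.17% of all genes tested called lower. That share was 15.7% after median-ratio scaling, 5.11% with the adipocyte score and 12.5% after quantile normalization. It was 3.21 to 5.28% in the other fits named. The PH-failure median of -0.21 became -0.48 after median-ratio scaling. For both PH groups together, 40 called lower became 68 after median-ratio scaling, where 23.4% of all genes tested were called lower. After quantile normalization 8 were called lower and 1 higher. The 8 are 10.4% of the 77 genes, below the 21.1% of all genes tested called lower under that scaling. The median of -0.39 became -0.65 after median-ratio scaling and -0.12 after quantile normalization. Without 1 library the count was 21 to 59, against 8.19 to 12.1% of all genes tested called lower. Between the PH groups the median of 0.37 became -0.063 with the adipocyte score, and no ribosomal protein gene was called under any alternative run. The cause of these changes was not tested. A stricter naming rule left out none of the symbols, so it gave no separate value. RPL10, with both PH groups together, changed direction after quantile normalization, to 0.37 (limma adjusted p = 0.0391). Among the other values of single named genes, 188 lost a call and 68 gained one, of 3267 computed.

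Replicate numbers did not pair the animals. The deviations of same-numbered libraries correlated at -0.26 to 0.19, and 0 of 9 libraries correlated best with their own number by that measure. Log2 levels themselves correlated closely, for example at 0.947 between low-PAP replicate 1 and PH-healthy replicate 1. With the replicate block, 23 genes were called lower in PH-healthy, 0 in PH-failure and 15 with both PH groups together. Replicate numbers 4, 5 and 6 occur only in low PAP, so those libraries added nothing to the contrasts of the block fit. Its lost calls may thus reflect fewer low-PAP animals. The same fit called 2.81%, 1.38% and 4.48% of all genes tested lower.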

Other observations

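Outside the ribosomal protein genes, the 10 genes whose log2 level followed the mean of the 77 most closely over the 12 libraries were EIF3M, SSR4, EEF1B, GPATCH11, FAU, EBNA1BP2, SCYE1, PFDN5, MAGOH and ZCCHC9, with Pearson's r of 0.975 for EIF3M down to 0.942 for ZCCHC9. These are descriptions over 12 libraries that share depth and scaling. SSR4, a subunit of the complex beside the protein channel of the endoplasmic reticulum, averaged 99.1 RPKM in low PAP, 70.8 RPKM in PH-healthy and 94.2 RPKM in PH-failure. EEF1B, an exchange factor of elongation factor 1, averaged 359, 260.2 and 348 RPKM. PFDN5, a prefoldin subunit, averaged 247, 157 and 188 RPKM, and MAGOH, of the exon junction complex, averaged 31.3, 21.5 and 25.7 RPKM. In each of these genes PH-healthy was the lowest group, as for the ribosomal protein genes. The genes were picked in these same libraries for following the mean of the 77, so this order comes from the choice and is no separate result.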
